A study of Caenorhabditis elegans with 2 samples.

Results

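The spliceosomal and spliced leader snRNA genes of Caenorhabditis elegans were examined in a ChIP-seq experiment on the tagged transcription factor HLH-13. The members were all genes that Ensembl annotates as snRNA on the WBcel235 assembly, the same assembly as ce11. There were 129 such genes among 46926 Ensembl genes. For each gene the best region was taken, which was the region of highest signal whose summit lay in the gene or within 100 bp of it. Of the 129 genes, 30 are named as spliced leader genes (sls) and 99 are not. Chromatin came from whole late embryos of strain OP744, 3.5 hours old, of mixed sex and obtained by bleaching. The worms carried the array wgIs744, in which hlh-13 is fused to TY1, EGFP and 3xFLAG with unc-119(+), in an unc-119 (tm4063) background. The antibody recognised GFP, and the experiment formed 1 group of 2 biological replicates with 1 control library, so no second condition was compared. For each replicate, and for both pooled, the authors deposited 30000 candidate regions, of which 423 pooled ones formed their optimal set. The pooled list is labelled as peaks and background, so a candidate region is not by itself a called peak. The pooled signal ran from 25.5 to 668, and the read depth behind it was unknown, since no list gives counts of reads. Positions are 1-based, on ce11.

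The spliceosome removes introns with the help of the small nuclear RNAs U1, U2, U4, U5 and U6. U1 and U2 pair with the 5' splice site and the branch point, U5 holds the exons, and U4 keeps U6 inactive until U6 joins the catalytic centre. Nematodes also trans-splice: the leader of an SL1 or SL2 RNA is joined to the 5' end of many mRNAs, with SL2 serving mainly the downstream genes of operons. SmY RNAs are small Sm-bound RNAs of nematodes associated with trans-splicing. U6 is made by RNA polymerase III and the other RNAs by RNA polymerase II. Both kinds of gene rely on a proximal sequence element upstream that binds the complex SNAPc, and U6 genes add a TATA box. HLH-13 is a basic helix-loop-helix protein of the Ptf1a family, and proteins of this kind bind E-boxes.

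The class of each gene was read from its name or its sequence. The 30 spliced leader genes were 18 SL2 genes, named sls-2, and 12 SL1 genes, named sls-1. The other 99 genes were 13 U1, 20 U2, 5 U4, 12 U5, 24 U6 and 10 SmY genes and 15 that no rule classed. U6 was recognised by ACAGAGA, U2 by GTAGTA, U5 by CCTTTTA, U4 by CTTTGCG and U1 by CTTACC within its first 20 bases. Identity of at least 80% to a classed gene placed 5 more. ZK1251.14, at 79.1% identity to sls-2.7, stayed just under that limit and unclassed.

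The 3 genes below show the leaders that matter for the results, read 5' to 3' on the gene's strand, with 22 bases in capitals that open the RNA. They lie at chrII:5543598-5543707 on the plus strand, chrIII:12250465-12250575 on the plus strand and chrV:17120694-17120791 on the minus strand. The annotation of sls-1.10 starts 1 base before its leader.
sls-2.2 gene: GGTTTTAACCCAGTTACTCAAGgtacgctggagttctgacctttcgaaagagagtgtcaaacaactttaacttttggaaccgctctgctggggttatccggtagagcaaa
sls-2.8 gene: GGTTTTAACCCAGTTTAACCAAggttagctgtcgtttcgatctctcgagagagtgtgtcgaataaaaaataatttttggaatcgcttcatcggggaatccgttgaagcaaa
sls-1.10 gene: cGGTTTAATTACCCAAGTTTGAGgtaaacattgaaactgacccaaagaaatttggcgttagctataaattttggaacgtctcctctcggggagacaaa
The leader of sls-2.2 was shared by sls-2.1, sls-2.3 and sls-2.4. The other 14 SL2 genes had other first 22 bases, as sls-2.8 does. Of the 12 SL1 genes, 10 were identical over the whole gene, and sls-1.1 and sls-1.5 were annotated from inside the RNA.

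Upstream of the genes, 80 bases are shown for the SL2 genes that the results turn on. Capitals mark TGCCTCG in sls-2.1, sls-2.2 and sls-2.3, which share the leader, and GGAACCC in sls-2.8. The last base of each run is the base before the gene. The runs lie at chrII:5844785-5844864 (plus strand), chrII:5543518-5543597 (plus strand), chrII:5544274-5544353 (minus strand) and chrIII:12250385-12250464 (plus strand).
sls-2.1: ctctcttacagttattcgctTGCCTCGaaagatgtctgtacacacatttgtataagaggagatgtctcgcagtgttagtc
sls-2.2: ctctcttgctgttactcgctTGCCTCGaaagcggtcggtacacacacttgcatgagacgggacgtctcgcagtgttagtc
sls-2.3: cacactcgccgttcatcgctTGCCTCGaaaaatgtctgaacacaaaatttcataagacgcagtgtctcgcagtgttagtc
sls-2.8: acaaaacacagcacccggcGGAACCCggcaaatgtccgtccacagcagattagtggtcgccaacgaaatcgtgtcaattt
The first 3 runs carry the marked 7 bases at the same distance from the gene, and bases beside them and next to the gene are shared too. The fourth has another sequence at that place.

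For U6, 80 bases upstream are shown for the 5 genes with a pooled region and for 2 without one, K09C6.12, which has GTCTGC, and Y17G9A.85, which lacks it and is wholly unique upstream. Capitals mark GTCTGC, where present, and TATATAA. The runs lie at chrIII:10989599-10989678 (plus strand) for W05B2.8, chrIII:5080899-5080978 (minus strand) for F54D8.7, chrIII:4426956-4427035 (minus strand) for C28A5.7, chrIII:4414105-4414184 (plus strand) for R07E5.16, chrIV:4885650-4885729 (minus strand) for T08B6.62, chrV:859011-859090 (plus strand) for K09C6.12 and chrIV:4864736-4864815 (minus strand) for Y17G9A.85.
W05B2.8: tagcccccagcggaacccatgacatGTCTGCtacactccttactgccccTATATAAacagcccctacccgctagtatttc
F54D8.7: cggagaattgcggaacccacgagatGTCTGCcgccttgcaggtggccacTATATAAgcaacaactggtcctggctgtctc
C28A5.7: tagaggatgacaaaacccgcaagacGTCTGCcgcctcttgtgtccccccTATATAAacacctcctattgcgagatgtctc
R07E5.16: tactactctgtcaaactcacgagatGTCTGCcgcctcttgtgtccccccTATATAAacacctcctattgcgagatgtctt
T08B6.62: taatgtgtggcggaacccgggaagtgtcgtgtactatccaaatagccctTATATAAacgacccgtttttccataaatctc
K09C6.12: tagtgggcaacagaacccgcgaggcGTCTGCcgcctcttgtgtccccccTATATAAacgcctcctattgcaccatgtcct
Y17G9A.85: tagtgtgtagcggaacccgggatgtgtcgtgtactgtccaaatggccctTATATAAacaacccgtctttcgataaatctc
All 7 carry TATATAA close to the gene. GTCTGC stands 55 bases before the gene in the first 4 and in K09C6.12, and is absent from T08B6.62 and Y17G9A.85.

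The 2 U1 genes of highest signal and the U4 gene with a region follow, at chrII:12944968-12945047 (minus strand), chrV:14028636-14028715 (minus strand) and chrV:11980038-11980117 (plus strand). Capitals mark GGAACCC, the core of the 8-base word that snRNA genes shared most.
sup-6: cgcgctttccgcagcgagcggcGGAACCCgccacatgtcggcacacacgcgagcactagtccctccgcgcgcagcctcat
T08G5.11: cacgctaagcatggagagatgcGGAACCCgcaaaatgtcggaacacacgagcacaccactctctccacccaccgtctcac
C52E4.8: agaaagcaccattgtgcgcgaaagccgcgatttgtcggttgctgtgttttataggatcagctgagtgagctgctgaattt
Both U1 genes carry the word 58 bases before the gene, and the U4 gene lacks it.

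The first question was how many snRNA genes had a region at all. A pooled candidate summit lay at 25 of the 129 genes (19.4%, 95% Wilson interval 13.5 to 27%), in 24 distinct regions. The same rule found one at 28.5% of all Ensembl genes, most of which are longer, and in 9.05% of genome windows of 309 bp, the median width searched for the members. Candidates lay at 4 of 30 spliced leader genes (13.3%, 5.31 to 29.7%) and at 21 of 99 other snRNA genes (21.2%, 14.3 to 30.3%). The 30 include 12 SL1 genes of repeated sequence, none with a candidate, and 4 of 18 SL2 genes had one (22.2%, 9 to 45.2%). The intervals take genes as independent, but genes of a family share sequence and are not replicates. Their overlap is thus no comparison of the groups, and no test was made. Among other small RNA genes the share was 56.4% of 612 tRNA genes, 33.2% of 346 snoRNA genes and 16.5% of 261 miRNA genes.

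The optimal set gave the other order. It held peaks at 4 spliced leader genes of 30 and at 2 other snRNA genes of 99. The background was 0.13% of the genome windows and 1.27% of Ensembl genes. Optimal peaks lay at 25.7% of tRNA genes, 14.5% of snoRNA genes and 1.15% of miRNA genes. The 13.3% of all 30 spliced leader genes was near the share of snoRNA genes and below that of tRNA genes. Over the 18 SL2 genes alone it was 22.2%, between those 2 shares, since the 12 SL1 genes had none and could not be read in the same way. All 4 spliced leader genes with an optimal peak were SL2 genes (sls-2.1, sls-2.2, sls-2.4 and sls-2.8), and both other snRNA genes with one were U6 genes (W05B2.8 and F54D8.7). Every spliced leader gene with a pooled region thus had an optimal peak, against 2 of 21 other snRNA genes with a region. The best regions at spliced leader genes ranked from 97 to 364 of 30000 with a median of 248, and those at other snRNA genes ranked from 14 to 29004 with a median of 3417. The median signal was 115 at spliced leader genes and 50.7 at other snRNA genes, beside 34.2 over all pooled candidates. Of the 30 spliced leader genes, 26 thus had no pooled region and 4 had an optimal peak. In replicate 1 alone the order of the shares turned round, with regions at 26.7% of spliced leader genes and 21.2% of other snRNA genes. Among genes with wholly unique windows the shares were 33.3% (1 of 3) and 26.7% (4 of 15). There a single spliced leader gene sets the order. The median rank in replicate 1 was 11.9% of the list at spliced leader genes and 22.7% at other snRNA genes, against 0.825% and 11.4% in the pool. These medians cover different genes, with 8 spliced leader genes in replicate 1 and 4 in the pool. The 4 ranked 65, 161, 178 and 943 in replicate 1.

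**Figure D1:**
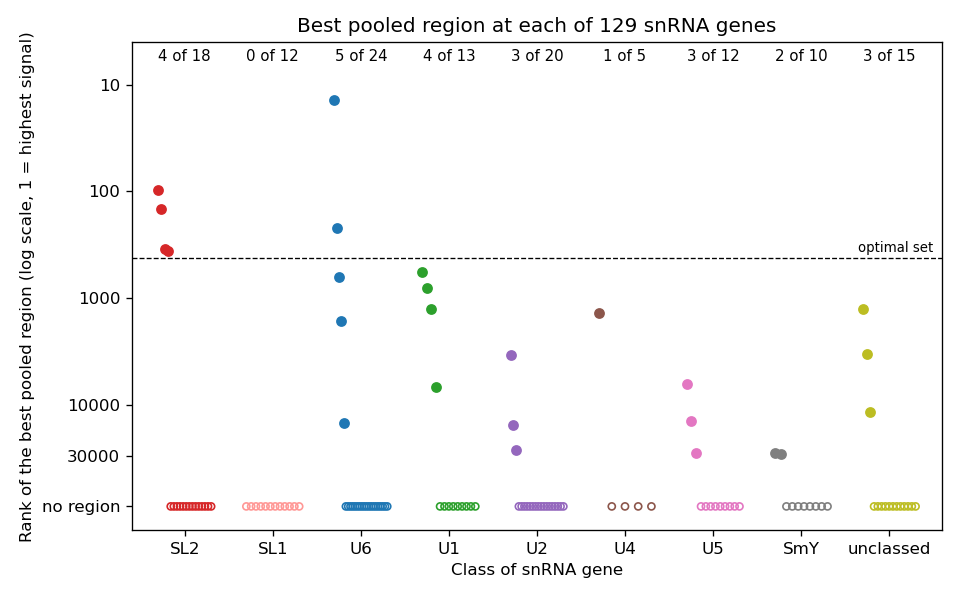
Rank of the best pooled region at each snRNA gene (log scale, with rank 1 at the top) by class, with filled points for genes with a region and open points for the rest; the dashed line is the rank of the last of the 423 optimal peaks. The 4 SL2 genes and 2 U6 genes sit above the line, and all 12 SL1 genes have no region.

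U6 gene W05B2.8 was the strongest member. It lies at chrIII:10989679-10989780 on the plus strand, inside the protein-coding gene dhc-4 on the same strand. Its region ranked 14 in the pooled list (signal 319), 14 in replicate 1 (signal 170) and 20 in replicate 2 (signal 148). The 3 ranks lay close together, and W05B2.8 was the one U6 gene among the best 423 regions of both replicates. Its optimal region was 214 bp wide and covered the whole gene of 102 bp.

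The SL2 genes with the shared leader came next in their class. At sls-2.4, on chromosome I, the region ranked 97 in the pooled list (signal 179), 65 in replicate 1 (signal 106) and 115 in replicate 2 (signal 81.4). At sls-2.2 it ranked 147 (signal 138), 178 in replicate 1 (signal 65.5) and 106 in replicate 2 (signal 82.9). These 2 genes were high in both replicates. At sls-2.1, chrII:5844865-5844974 on the plus strand, it ranked 348 (signal 92.4), 161 in replicate 1 (signal 69.2) and 7346 in replicate 2 (signal 25.5). The region at sls-2.1 was thus high in replicate 1 and far lower in replicate 2.

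The last SL2 gene, sls-2.8, has another leader and leaned the other way. Its region ranked 364 in the pooled list (signal 90.7), 943 in replicate 1 (signal 37.9) and 224 in replicate 2 (signal 58.6). U6 gene F54D8.7, at chrIII:5080798-5080898 on the minus strand between coding genes, ranked 221 (signal 112), 175 in replicate 1 (signal 66) and 967 in replicate 2 (signal 39.4). F54D8.7 was thus among the best 423 of replicate 1 but not of replicate 2. All 4 spliced leader genes with a region lay between coding genes, as did 23 of all 30 spliced leader genes. Of the other snRNA genes 8 of 21 with a region lay between coding genes, as did 43 of all 99. Among the 4 spliced leader genes, sls-2.8 lay closest to the start of a coding gene. An annotated noncoding RNA gene overlapped 3 of the 4 (sls-2.4, sls-2.2 and sls-2.8) and 5 of all 30. For the other snRNA genes this held at 10 of 21 with a region and at 34 of all 99. Whether the 4 regions belong to the SL2 genes or to these neighbours was not tested.

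Among the 5 SL2 and U6 genes that reached the best 423 regions of replicate 1, 3 were spliced leader genes, and the background was 0.129% of genome windows. In replicate 2 these counts were 4 and 3, against 0.13%. W05B2.8, sls-2.2 and sls-2.4 were in both. These 3 genes were the members with a top region in each replicate.

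Below the optimal set, 3 U1 genes were among the best 2000 pooled regions. U1 gene sup-6, a locus known from genetic suppressors, ranked 566 in the pooled list (signal 76.9), 774 in replicate 1 and 565 in replicate 2. U1 gene T08G5.11 ranked 797 (signal 70.2), 4687 in replicate 1 and 681 in replicate 2. U1 gene sup-39, known for mutations that suppress splice-site defects, ranked 1254 (signal 63), 1353 in replicate 1 and 3878 in replicate 2. Of the 3, sup-6 held the closest ranks between replicates, and T08G5.11 and sup-39 differed in opposite directions. The region at sup-39 also counted for mir-1831, a 22 bp gene annotated as snRNA inside it, so these are the pair of members that share a region. The fourth U1 gene with a region, H27M09.6, ranked 6810.

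Further U6 genes and the U4 gene C52E4.8 had regions among the best 2000. U6 gene C28A5.7 ranked 632 in the pooled list (signal 74.3), 1147 in replicate 1 and 1673 in replicate 2. U6 gene R07E5.16 ranked 1624 (signal 59.7), 7622 in replicate 1 and 888 in replicate 2. C52E4.8 ranked 1367 (signal 61.8), 4188 in replicate 1 and 802 in replicate 2. The U6 gene C28A5.7 was alike in both replicates, while the other 2 were stronger in replicate 2.

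The remaining classes lay deep in the list. The best U2 gene, Y57G11C.35, ranked 3417, followed by W07G1.8 at 15414 and C05G6.4 at 26788. The U5 genes F32B5.9, F38E11.10 and C53B4.9 ranked 6353, 14283 and 28650, and the SmY genes smy-8 and smy-10 ranked 28094 and 29004. Of the unclassed genes, T10H4.16 ranked 3371 and T10H4.17 ranked 11750. The deposited −log10 q was 0.475 at Y57G11C.35, 0.312 at F32B5.9 and 0.0787 at smy-8, the best of their classes, and at most 2.36 in the pooled list. Such regions may be background. By class, a pooled region lay at 4 of 18 SL2, 0 of 12 SL1, 5 of 24 U6, 4 of 13 U1, 3 of 20 U2, 1 of 5 U4, 3 of 12 U5 and 2 of 10 SmY genes. Apart from SL1 these shares ran from 15% in U2 to 30.8% in U1, and the classes were not compared by a test.

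The replicates were compared next. Replicate 1 had a region at 29 snRNA genes, 8 of them spliced leader genes, beside 9.04% of genome windows. Replicate 2 had one at 23, with 4 spliced leader genes, beside 9.08% of windows. In both there were 15 genes, and all 15 also had a pooled region. Across these 15 genes, 2 of which share a region, the ranks of the replicates had a Spearman correlation of 0.56, given as a description. A further 12 genes had a region in replicate 1 and none in the pool, at ranks of 4652 or worse, and 4 of them were SL2 genes (sls-2.3, sls-2.5, sls-2.10 and sls-2.16). In replicate 2 there were 3 such genes, at ranks of 5763 or worse. The best-ranked gene found in 1 replicate alone was T10H4.16, which had a pooled region and ranked 2248 in replicate 2.

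**Figure D2:**
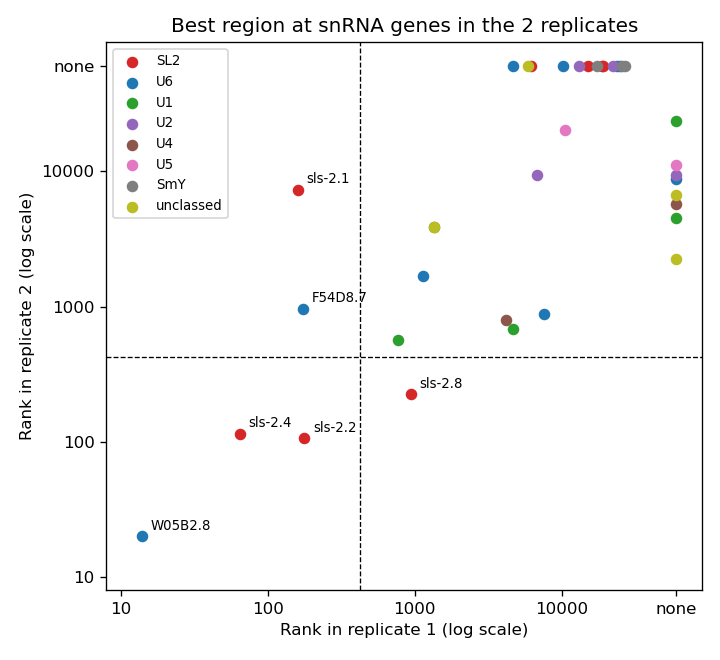
Rank of the best region in replicate 1 (horizontal axis) and in replicate 2 (vertical axis), both on log scales, for the snRNA genes with a region in either; "none" marks genes with no region in that replicate, dashed lines mark rank 423, and sup-39 lies under mir-1831. W05B2.8, sls-2.4 and sls-2.2 are the points below both lines.

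The summits were then placed against the genes. Over the 25 genes the pooled summit lay a median of 42 bp past the 5' end, from 100 bp before to 182 bp past it. It lay upstream of 8 genes, inside 12 and downstream of 5. The median was 97 bp at the 4 spliced leader genes and 35 bp at the 21 other snRNA genes, while in replicate 1 it was 40 bp at 8 spliced leader genes and 12 bp at 21 other snRNA genes. At U6 genes it was 7 bp, from 13 bp before the 5' end to 135 bp past it. The whole region covered all of the gene in 21 of 25 cases, since regions of 370 bp are wider than the genes, so a summit in or beside a gene does not separate its promoter from its body.

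Single summits varied between replicates. At sls-2.4 they lay 76 bp past the 5' end in the pool, 82 bp in replicate 1 and 81 bp in replicate 2. At W05B2.8 they lay 6 bp past it in the pool, 94 bp past it in replicate 1 and 24 bp before it in replicate 2. Among the 15 genes with a region in both replicates, sls-2.4 had the closest summits, at 1 bp, and the median distance was 64 bp, up to 179 bp. Only 5 of the 15 were within 50 bp. The median place moved to 24 bp past the 5' end in replicate 1 and to 29 bp in replicate 2.

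**Figure D3:**
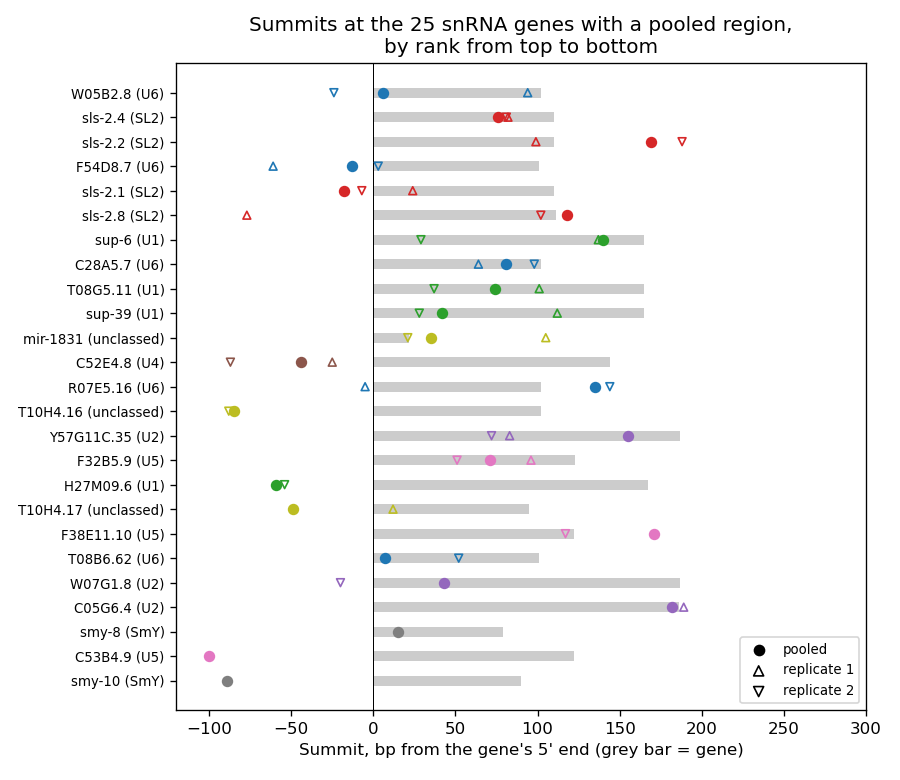
Summits at the 25 snRNA genes with a pooled region, in bp from the gene's 5' end, with the gene as a grey bar; filled circles are pooled, upward triangles replicate 1 and downward triangles replicate 2, and genes run by pooled rank from the top. At sls-2.4 the 3 symbols fall together, and at W05B2.8 they spread from before the gene (replicate 2) to near its end (replicate 1).

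The pair sls-2.2 and sls-2.3 face each other with 456 bp between them. The pooled summit lay between them, 60 bp past the end of sls-2.2 and 397 bp from sls-2.3. At sls-2.3 itself replicate 1 had a region ranked 15090, and the pool and replicate 2 had none. The 2 genes are 97.3% identical, against 72% over their 100 bp upstream.

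The limit of 100 bp decided a few genes. Just inside it were C53B4.9, with its summit at 100 bp, and smy-10, at 89 bp. Just outside were the U2 gene F08G2.11 at 117 bp (rank 10692), the U5 gene ZK897.4 at 126 bp (rank 16494) and sls-2.14 at 129 bp (rank 9705). An optimal peak of rank 334 lay 149 bp before the 5' end of sls-2.9, a gene named here after its value was seen. With a limit of 250 bp it brought the spliced leader genes with an optimal peak to 5.

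The SL2 genes were then split by leader. Of the 4 genes that share the leader of sls-2.2, 3 had an optimal peak, and of the 14 SL2 genes with another leader 1 did. All 4 had TGCCTCG starting 60 bases upstream, and no other snRNA gene had it within 100 bases. The word stood in the same window at 0.41% of 1219 tRNA, snoRNA and miRNA genes and at 0.245% of 19973 protein-coding genes. The gene sls-2.3 has the leader and the word and no pooled region. The word and the leader occur together in these 4 genes, so their parts cannot be told apart. The 4 genes are 90.9 to 97.3% identical to each other, and their upstream 100 bp 69 to 79%.

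Among U6 genes the copies are nearly the same RNA, with 24 genes in 9 distinct sequences and 14 identical. W05B2.8, C28A5.7, R07E5.16 and K09C6.12 are 100% identical in the gene, and F54D8.7 is 99% identical to them. Upstream they are 62 to 85% identical. Of the 5 U6 genes with GTCTGC, 4 had a pooled region, and of the 19 without it 1 had. Regions in replicate 1 only lay at K09C6.12 (rank 23794), with the word. Without the word they lay at Y9C9A.111 (rank 4652), K09B11.13 (rank 10156) and Y17G9A.85 (rank 24963). Both optimal U6 peaks were at genes with GTCTGC. All 5 U6 genes with a pooled region had TATATAA, which 15 of the 24 U6 genes carry. The word GTCTGC also stood upstream of 10 SL1 genes, the U5 gene C53D6.16 and the unclassed gene M163.13, none with a pooled region. It stood at 2.95% of the other small RNA genes and at 1.17% of protein-coding genes, and TATATAA at 1.23% and 2.83%.

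Uniqueness also differed between these groups of U6 genes. Upstream 32-mers found once in the genome made up 65.2 to 100% in the 5 genes with GTCTGC and 0 to 100% in the 19 without. Counting only genes whose upstream 32-mers were all unique, a pooled region lay at 2 of 2 with the word and at 1 of 7 without it. Among SL2 genes with fully unique upstream sequence, it lay at 3 of 4 with the shared leader and at 1 of 8 with another. The part of uniqueness in these counts was not tested. The words were chosen by reading the sequences with the ranks known, so these counts are descriptions.

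The 8-base word that most snRNA genes shared upstream was CGGAACCC, in 31 of the 129 genes (24%), starting a median of 61 bases before the gene. CGGAACCC stood at 1.8% of the other small RNA genes and at 0.025% of protein-coding genes. Shorter words were shared by more snRNA genes, AACCCG by 43 and AACCCGC by 33. GGAACCC or its variant GAAACCC was upstream of 48 genes (37.2%), among them 11 of 12 U5, 9 of 13 U1, 8 of 10 SmY and 10 of 18 SL2 genes and 0 of 20 U2 genes. U2 genes instead shared TGTCGGTACAC, in 14 of 20, at a median of 47 bases before the gene over the 20 genes of all classes that hold it. Of genes with a pooled region 13 of 25 (52%) held GGAACCC or GAAACCC, and of genes without one 35 of 104 (33.7%). The 13 count both sup-39 and mir-1831, which share a region. None of the 12 SL1 genes held either word, and the 2 groups were not matched by class. The summit lay past the word at 11 of these 13 genes, by a median of 99 bp over the 13. Most of the window in which a summit was accepted lies past the word, so this count was largely set by the rule. All words were searched on the gene's strand, and GGAACCC lies within CGGAACCC.

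Motifs around the summit were counted next. The E-box CANNTG, which reads the same on both strands, was found in 4 of the 24 regions (16.7%) within 50 bp of the summit, against 35% of the other 29976 candidates. The A box and B box, the internal promoter of tRNA genes, were searched on both strands within 100 bp. An A box was in 1 of 24 regions (4.17%) and a B box in 0 of 24, against 15.5% and 1.86% of the other candidates. Among optimal peaks alone, an A box was in 0 of 6 at snRNA genes and in 51.3% of the other 417, and a B box in 0 of 6 and in 35.5%. The E-box was in 2 of 6 optimal peaks at snRNA genes (33.3%) and in 31.7% of the other optimal peaks. TATATAA was found in 4 of 24 regions (16.7%) within 100 bp, against 2.49% of the other candidates. The regions were chosen for lying at snRNA genes, and all 5 U6 genes with one carry TATATAA upstream, so this share partly follows from that choice. With 24 regions, or 6, each such share is coarse. All 24 regions had their summits at least 2079 bp from the nearest gene annotated as tRNA, snoRNA or miRNA. None of them was thus also a region of a gene so annotated. The region at sup-39 is shared with mir-1831, a microRNA gene by its name that is annotated as snRNA.

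The SL1 genes could not be read in the same way. They lie in a tandem cluster at chrV:17118154-17132107 together with 12 rRNA genes, and no list had a summit in it. Of the 12 genes, 11 had no unique 32-mer in their upstream 100 bp, and all 12 had none in the gene. Whether the tagged protein was recovered there was therefore not measurable from uniquely placed reads of about that length. The sources used here do not say how reads matching several sites were placed.

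Repeated sequence also touched the other classes. No 32-mer inside the gene was unique at 48 of the 129 genes, among them 17 of 24 U6 and 11 of 20 U2 genes. Upstream, all 32-mers were unique at 72 genes, and 22 of the 25 genes with a pooled region were among them. The median share of unique 32-mers in the gene and its 100 bp on each side was 76.3% at genes with a pooled region and 63.7% at genes without. At the strongest gene, W05B2.8, 0% of the gene and 100% of its upstream window was unique. Of 18 genes with wholly unique windows 5 had a region, 1 of 3 spliced leader genes and 4 of 15 other snRNA genes. The part of repeated sequence in the missing regions was not tested.

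**Figure D4:**
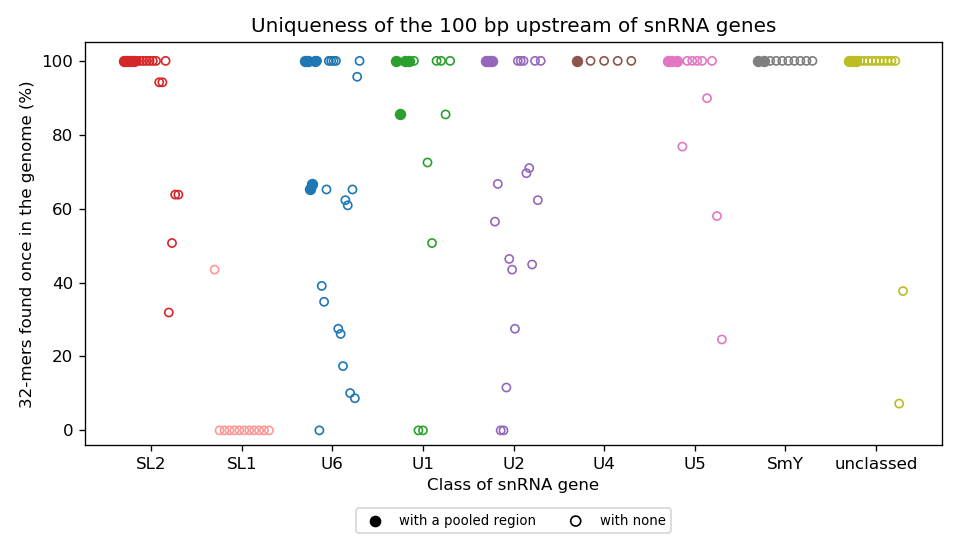
Percent of 32-mers found once in the genome in the 100 bp upstream of each snRNA gene, by class, with filled points for genes with a pooled region and open points for genes with none. Of 25 filled points 22 lie at 100%, and 11 of the 12 SL1 genes lie at 0%.

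The proteins that work with these RNAs were looked up by promoter, from 1000 bp upstream to 200 bp downstream of a start. A pooled candidate lay in that window at 38.4% of protein-coding genes and an optimal peak at 1.32%. Of 14 Sm and LSm genes, whose proteins form rings on these RNAs, 9 had a candidate and 1 an optimal peak. That gene was snr-1, at rank 116 (signal 162), followed by snr-2 at 536, lsm-3 at 810 and snr-4 at 1367. The region at snr-4 is the one at the U4 gene C52E4.8, so the gene it belongs to cannot be told apart. Of 9 genes for SNAPc and polymerase initiation factors 3 had a candidate, with snpc-4, a DNA-binding subunit of SNAPc, at rank 8099. Of 3 trans-splicing genes 2 had one, sna-2 at rank 625 and sut-1 at 25618. Of 8 genes for other snRNP proteins 1 had one, rnp-2 at 10956. No gene of the last 3 lists had an optimal peak.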

How the data were processed

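Lists of regions from anti-GFP ChIP-seq of 2 replicates were used as the authors deposited them. Per the submitters' file manifests, each list came from the alignments of 1 replicate or of both against 1 control library, and the optimal set from the 3 lists by the irreproducible discovery rate. The sources used here name no aligner, peak caller, version or threshold. The deposited signal is the authors' enrichment over the control, of unknown scale, and served to rank regions within a list. The deposited −log10 q-values reach 2.36 in the pooled list and were not used to rank. Summits are the deposited offsets, at the middle of 99.8% of pooled regions. Depth was unknown. Wilson intervals (95%) cover the number of genes only and take the genes as independent, which members of a family are not.

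Genes were those of Ensembl release 115, with names from RefSeq by gene identifier (129 of 129 matched), because 44 members share an Ensembl name. Sequence came from the RefSeq copy of the assembly. No p-values were computed, since the series holds 1 group. Members, lists and words were chosen with earlier results of these data known. Named genes were those with an optimal peak or among the best 423 of a replicate, the 3 of highest signal in each class, and those at the 100 bp limit. Other genes, such as H27M09.6, R07E5.16, T08B6.62, K09C6.12 and Y17G9A.85, were named after their values were seen. List names with no match were lsm-2, bdp-1 and sap-1. Assignment was tested on simulated data. Alternatives were other distances, overlap, each replicate alone, unique genes, stricter and looser sets and other upstream windows. The software was Biopython 1.88, matplotlib 3.10.9, pandas 2.3.3, Python 3.11.15, scipy 1.17.1 and numpy 2.4.6.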

Additional observations from a re-analysis of the deposited data

How the results depend on the processing

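Of 49 alternatives over 10 results, 31 left the value within a range set for that result and 18 moved it, and the causes were not tested. The range was the Wilson interval for shares, a fixed ratio for counts and a fixed difference for the correlation. For ranks and distances it was the standard deviation of the 2 replicates' values, which are themselves among the alternatives. With the summit required inside the gene, regions lay at 3.33% of spliced leader genes and 11.1% of other snRNA genes, and optimal peaks at 1 gene of each kind. With 250 bp the share of other snRNA genes was 30.3%. Among genes with wholly unique windows it was 33.3% for spliced leader genes, 3 genes in all. The better 50% of optimal peaks left 2 spliced leader genes and 1 other snRNA gene, and a doubled number of pooled regions gave 5 other snRNA genes.

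With 1 replicate left out, the share ran from 13.3 to 26.7% for spliced leader genes and from 19.2 to 21.2% for other snRNA genes. The order of the 2 shares turned round in replicate 1 alone. It also did so among genes with wholly unique windows, where 1 of 3 spliced leader genes had a region. The genes among the best 423 were 3 spliced leader genes in each replicate and 1 to 2 others. The median rank ran from 0.565 to 11.9% of the list for spliced leader genes, against 0.825% in the pool. Replicate 1 held regions at 4 more such genes than the pool. For other snRNA genes it ran from 12.9 to 22.7%, against 11.4%. The median distance from the 5' end ran from 40 to 91.5 bp and from 12 to 28 bp.

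With the summit nearest the 5' end, the median rank at other snRNA genes was 21.2%. At those among the best 1000 regions the median distance was 74 bp. The replicates' correlation was 0.485 with the region nearest the pooled summit. In 60 bp upstream CGGAACCC stood at 11 genes. No paired analysis was possible because there is 1 group.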
